A study of Mus musculus with 11 samples.

Results

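The 43 genes described here encode the enzymes, carriers and regulators that burn fatty acids in mitochondria and peroxisomes. They are a list of gene symbols looked up in the deposited count table, drawn up with earlier results of these data known. All 43 were found among the 25677 genes of that table. Each had enough reads to be tested in every comparison. The RNA came from kidneys of female mice aged 21 weeks, and each mouse gave 1 library. Ctr is 3 healthy mice labelled C57B6. Lpr is 4 mice of the MRL/lpr strain, which carry the lpr mutation of the Fas gene on the MRL background and develop a lupus-like nephritis. DNase is 4 MRL/lpr mice that received DNase I, an enzyme that digests the DNA of neutrophil extracellular traps, from week 17 until the kidneys were taken. Strain and disease go together in this design, so in a comparison with Ctr they cannot be told apart, whereas Lpr and DNase share the strain.

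The proximal tubule of the kidney does most of the organ's salt and solute reabsorption and takes most of its energy from fatty acids. Fatty acids are first activated to acyl-CoA, and long chains enter mitochondria through the carnitine shuttle and are shortened there by beta-oxidation, which hands electrons to the respiratory chain. Peroxisomes shorten very long, branched and dicarboxylic chains, a process that releases hydrogen peroxide, and the nuclear receptor PPARalpha with its coactivator PGC-1alpha drives many of these genes.

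The deposited libraries held 33469858 to 38460873 counted reads. The genes of the list took 1.30 to 1.51% of the reads in Ctr, 0.963 to 1.20% in Lpr and 1.19 to 1.47% in DNase. Levels below are normalised counts (CPM, each library's counts scaled to a common total after TMM normalization of all 11), and levels of different genes are compared only as FPKM, which also divides by gene length. On that scale Acadm, the medium-chain acyl-CoA dehydrogenase, stood highest in Ctr at 576 ± 49.5 FPKM (SD, n = 3), followed by Cat, catalase, at 466 ± 68.3 FPKM (SD, n = 3) and Etfb, a subunit of the electron transfer flavoprotein, at 374 ± 67.4 FPKM (SD, n = 3). The SDs of Acadm and Cat overlapped, as did those of Cat and Etfb. The regulators lay near the bottom, with Ppara at 13.2 ± 0.791 FPKM (SD, n = 3) and Ppargc1a at 5.28 ± 0.502 FPKM (SD, n = 3), and Acsm3, a medium-chain acyl-CoA synthetase, was lowest at 2.60 ± 1.41 FPKM (SD, n = 3).

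Several kidneys stood apart in ways that bear on these genes. In Lpr replicate 3 the counts fell with gene length (slope -0.393 log2 units per doubling of length, against -0.0427 to 0.0767 in the other kidneys). Among the 21 genes of the list longer than 2685 bases it was the lowest Lpr kidney in 12 and the highest in 4, with a median difference from the mean of the other Lpr kidneys of -0.35 on the log2 scale. Among the 22 shorter genes it was the lowest in 5 and the highest in 12, with a median of 0.23. Summed proximal tubule markers (19 genes, among them Lrp2, Slc34a1 and Slc5a2, none at 0 in any group) ranged from 18069 to 20415 CPM in Ctr, 10845 to 18057 CPM in Lpr and 13691 to 18151 CPM in DNase. Of the 19, 0 passed as lower in Lpr than in Ctr and 1 as higher (against 2.92% and 7.27% of all genes tested). Summed leukocyte markers (16 genes) ranged from 61.2 to 132 CPM in Ctr, 1132 to 1973 CPM in Lpr and 797 to 1832 CPM in DNase, and 13 of the 16 passed as higher in Lpr than in Ctr. Podocyte markers (6 genes) summed to 779.8 to 875 CPM in Ctr, 389 to 757 CPM in Lpr and 746 to 828 CPM in DNase, and those of the later nephron (17 genes) to 11004 to 11657, 6807 to 9581 and 8235 to 13468 CPM. Between Lpr and Ctr, 0 of the podocyte markers passed, and of the later nephron 1 passed as lower and 1 as higher. Lpr replicate 3 set the low end of the proximal tubule and podocyte sums in Lpr. The next lowest Lpr kidney, replicate 2, was at 13985 and 662 CPM. Adrenal cortex markers (6 genes, 2 of them at 0 throughout Ctr) summed to at most 1.17 CPM in any kidney, and skeletal muscle markers (7 genes) to at most 45.9 CPM. The part of these cell types in the results was not tested. In such whole-kidney RNA, fewer tubule cells and less RNA per cell cannot be told apart.

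**Figure D1:**
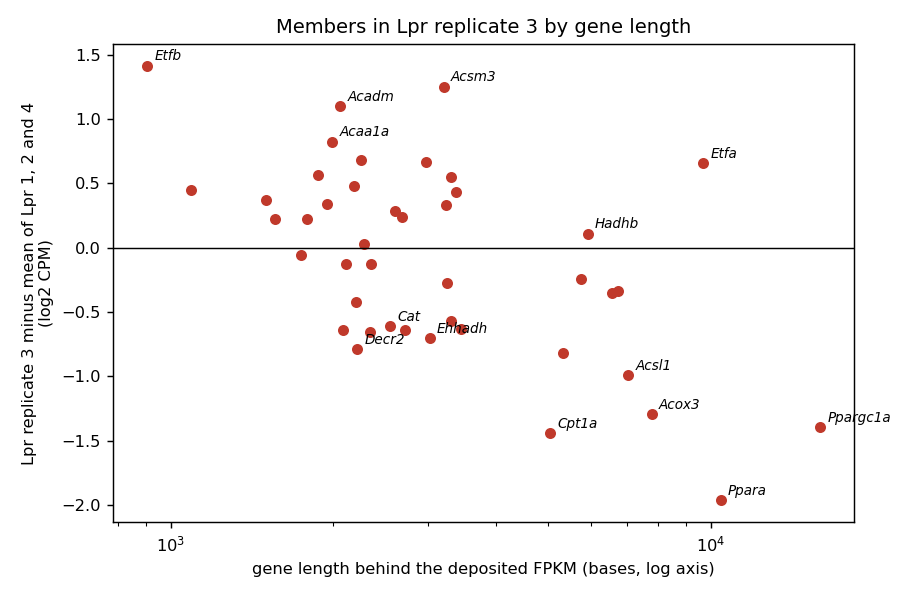
Each point is 1 of the 43 genes. The horizontal axis is gene length in bases (log scale) and the vertical axis is the log2 CPM of Lpr replicate 3 minus the mean of Lpr replicates 1, 2 and 4. Ppara and Ppargc1a, the longest genes with Etfa, lie at -1.96 and -1.39, and Etfb, the shortest, lies at 1.41.

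Promoters are shown for 2 genes, Acsm1, with the lowest Lpr to Ctr ratio of the list, and Cat, one of the genes with the smallest p between DNase and Lpr. For Cat the adjusted p from edgeR was 0.061 (Lpr minus Ctr), 0.82 (DNase minus Lpr) and 0.388 (DNase minus Ctr). PPARalpha pairs with the retinoid X receptor on repeats of AGGTCA separated by any 1 base. RefSeq (GRCm38.p6) gave 39 promoters of 300 bases, 250 before and 50 after the start, for 35 of the 43 genes. Both strands were searched, and a promoter was counted once however many matches overlapped in it. With at most 1 mismatch the repeat was found in none of the 39 promoters and in 0.586% of the 24248 promoters of all listed genes. With at most 2 mismatches it was found in 4 of 39 (10.3%) and in 3.76% of all. The 250 bases before the start are printed 5′ to 3′ along the gene, with the 13 bases of such a match in capitals.
Acsm1 (chr7:119617562-119617811, + strand): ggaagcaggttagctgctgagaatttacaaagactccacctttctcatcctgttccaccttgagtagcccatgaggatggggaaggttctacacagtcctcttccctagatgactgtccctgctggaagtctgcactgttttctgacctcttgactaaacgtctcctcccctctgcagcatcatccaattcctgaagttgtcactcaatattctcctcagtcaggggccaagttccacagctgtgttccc
Cat (chr2:103485154-103485403, - strand): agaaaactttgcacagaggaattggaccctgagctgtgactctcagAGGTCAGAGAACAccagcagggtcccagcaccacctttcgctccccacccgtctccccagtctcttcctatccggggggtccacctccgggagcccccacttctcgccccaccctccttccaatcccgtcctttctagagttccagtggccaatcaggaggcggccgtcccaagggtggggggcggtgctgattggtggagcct
The other matches are written along the strand of their promoter, and in Etfa the repeat reads on the opposite strand.
Acox2 (chr14:8258818-8258830, - strand): AGGACAGAGGTGA
Slc25a20 (chr9:108662142-108662154, + strand): AGGTGAAAGGTCG
Etfa (chr9:55512308-55512320, - strand): TTACCTTTGCCCT
GENCODE (M21) places the outermost start of Acsm1 upstream of the RefSeq start used here. A match describes letters and is not evidence of binding, and the Acsm1 window without one says nothing about the receptor.

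The comparison of Lpr with Ctr asks how these genes stand in the diseased kidney. Of the 43 genes, 6 passed the test as lower in Lpr (14.0%, against 2.92% of all 16074 genes tested) and 0 passed as higher (against 7.27% of all), where passing means an adjusted p under 0.05 from edgeR's quasi-likelihood test over all genes. At an unadjusted p under 0.05 there were 11 lower (25.6%, against 7.70% of all) and 0 higher (against 13.7% of all). DESeq2 called 8 lower (against 4.31% of all 19519 genes it tested) and 0 higher (against 8.58%). The 6 were Acsm1, Ehhadh, Decr2, Acox2, Abcd3 and Crot, and 5 of them encode peroxisomal proteins. The fitted change was negative for 36 of 43 genes, and the median of the 43 log2 fold changes was -0.31 (0.03 over all genes), but it became 0.08 when libraries were scaled to the proximal tubule markers, a scaling that moved the median of all genes to 0.42 and left Acsm1 and Ehhadh as the 2 genes that passed (against 1.36% of all genes as lower). The count of lower genes also depended on single kidneys. It was 11 without Lpr replicate 3, the library with the length trend (25.6%, against 6.79% of all genes, with 0 higher against 11.0% of all), but 3 without Lpr replicate 1 (against 2.17% of all genes), 2 without Lpr replicate 2 (against 2.00%), 1 without Lpr replicate 4 (against 2.45%), 1 without Ctr replicate 1 (against 1.29%), 1 without Ctr replicate 2 (against 1.57%) and 3 without Ctr replicate 3 (against 1.60%). Calls over all genes thus fell in these 6 fits as well. The values of Crat, Acat1 and Etfb turned sign when Lpr replicate 3 was left out, and those of 16 other genes of the list moved by over 1.5 times with the same sign.

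**Figure D2:**
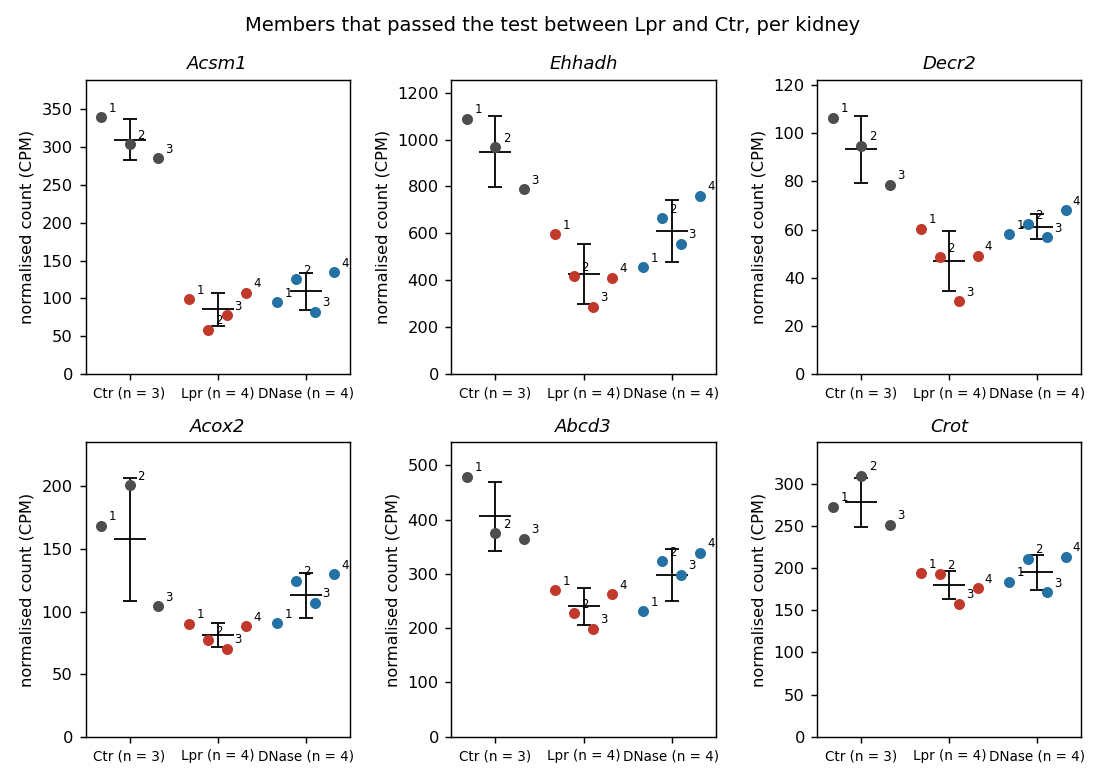
Normalised counts (CPM) of the 6 genes that passed the test between Lpr and Ctr. Each point is 1 kidney with its replicate number, and the bar and whiskers are the mean ± SD. In all 6 panels every Lpr kidney lies below every Ctr kidney, and Acsm1 has Lpr kidneys from 58.5 to 107 CPM and Ctr kidneys from 286 to 339.7 CPM. The genes were picked by the test on these same kidneys, so their separation is no further support. It also held for genes that did not pass, among them Acsl1, Acsm2, Slc25a20, Hadha, Etfdh and Cat. The share of all genes so separated between Lpr and Ctr was not counted.

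Of the 13 peroxisomal genes, 5 passed as lower in Lpr and 0 as higher. The enzyme Ehhadh (chr16:21761287-21787807, - strand, GRCm38), the L-bifunctional protein that carries out the hydration and dehydrogenation steps of peroxisomal beta-oxidation, was measured at 1089.6, 968 and 788 CPM in Ctr and 597, 416, 287 and 410.2 CPM in Lpr. Its groups did not overlap, and it was 2.20-fold lower in Lpr (log2 fold change -1.14, standard error 0.25, adjusted p = 0.0216). Without Lpr replicate 2, Lpr replicate 4, Ctr replicate 1 or Ctr replicate 2 it no longer passed. Decr2 (chr17:26081208-26090337, - strand), the peroxisomal 2,4-dienoyl-CoA reductase needed for polyunsaturated chains, stood at 106, 94.9 and 78.7 CPM in Ctr and 60.4, 48.5, 30.4 and 49.2 CPM in Lpr. The highest Lpr kidney lay below the lowest Ctr kidney (log2 fold change -0.98, standard error 0.23, adjusted p = 0.0306). For Acox2 (chr14:8225511-8259353, - strand), the oxidase of branched chains and bile acid intermediates, Ctr gave 169, 201 and 104 CPM and Lpr 90.4, 77.0, 70.2 and 88.5 CPM. Ctr replicate 3 was close to the Lpr kidneys, which were themselves tightly grouped (log2 fold change -0.94, standard error 0.23, adjusted p = 0.0315).

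Genes for entry into and exit from the peroxisome moved likewise. The transporter gene Abcd3 (chr3:121758774-121815302, - strand), whose product carries long and branched acyl chains across the peroxisomal membrane, was at 479, 374 and 364 CPM in Ctr and 270.4, 228, 199 and 263 CPM in Lpr (log2 fold change -0.75, standard error 0.18, adjusted p = 0.0316). Crot (chr5:8966033-8997324, - strand), the carnitine octanoyltransferase that exports shortened chains, was at 272, 309 and 251 CPM in Ctr and 193, 192, 158 and 176 CPM in Lpr (log2 fold change -0.61, standard error 0.16, adjusted p = 0.0391). The groups were separate for both genes. As for Ehhadh, the calls of Acox2, Decr2, Abcd3 and Crot were each lost without Ctr replicate 1, Ctr replicate 2, Lpr replicate 2 or Lpr replicate 4. The calls of Decr2, Abcd3 and Crot were also lost without Ctr replicate 3, and those of Acox2, Abcd3 and Crot without Lpr replicate 1.

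The other 8 peroxisomal genes did not pass. Cat, which breaks down hydrogen peroxide, was measured at 1407, 1255 and 1038 CPM in Ctr and 769, 692, 512 and 894 CPM in Lpr. Every Lpr kidney was below every Ctr kidney, with an adjusted p of 0.061 (log2 fold change -0.77, standard error 0.22). Acox3, a further branched-chain oxidase, ranged from 123 to 137 CPM in Ctr and 36.6 to 93.6 CPM in Lpr, where Lpr replicate 3 was the lowest (adjusted p = 0.175). Without that library both passed, at log2 fold changes of -0.64 (Cat) and -0.53 (Acox3). The remaining members gave log2 fold changes of -0.23 for Hsd17b4 (the D-bifunctional protein), -0.04 for Eci2 (an enoyl-CoA isomerase), 0.13 for Amacr (the racemase of branched chains) and 0.01 for Pex11a (a factor of peroxisome division). The peroxisomal thiolases that complete the cycle had positive values, 0.58 for Acaa1a and 0.34 for Acaa1b (adjusted p = 0.24 and 0.628). Leaving out Lpr replicate 3 gave 0.33 and 0.14 for these thiolases, -0.21 for Eci2, 0.05 for Amacr and 0.15 for Pex11a. The median over the 13 peroxisomal genes was -0.61.

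Among the genes of fatty acid activation, Acsm1 had the lowest ratio of the whole list. Acsm1 (chr7:119607026-119662515, + strand), a mitochondrial synthetase that activates medium-chain acids, was at 339.7, 304 and 286 CPM in Ctr and 99.4, 58.5, 78.1 and 107 CPM in Lpr. The groups were far apart, with Acsm1 3.59-fold lower (log2 fold change -1.84, standard error 0.22, adjusted p = 0.00143), and it passed with any 1 kidney left out. The synthetase Acsl1, which activates long chains, ranged from 622 to 712 CPM in Ctr and 208 to 443 CPM in Lpr, with an adjusted p of 0.0599 (log2 fold change -0.90). Without Lpr replicate 3 its log2 fold change was -0.71 and it passed (adjusted p = 0.00398 from edgeR). Acsm2, a relative of Acsm1 that lies beside it on chromosome 7, gave -0.43 and Acsm3 -0.43. The thioesterases that release free acids from acyl-CoA gave -0.14 (Acot1, cytosolic) and -0.47 (Acot2, mitochondrial), none of these 4 passing. Acot1 and Acot2 share 95.8% of their aligned coding bases, and 39.8% of the exon bases of Acsm3 overlap Eri2 on the opposite strand. Whether the counting used strand is not given in the sources used here, so reads of such pairs may have been exchanged.

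None of the 5 genes of the carnitine shuttle and its control passed. Cpt1a, the rate-limiting entry enzyme on the outer mitochondrial membrane, was at 478, 540.0 and 481 CPM in Ctr and 416, 376, 142 and 369.8 CPM in Lpr. The kidney of Lpr replicate 3 was far below the others (log2 fold change -0.61, standard error 0.33, adjusted p = 0.342), and without it the log2 fold change was -0.36 and passed (adjusted p = 0.0406 from edgeR). The inner-membrane carrier Slc25a20 gave -0.49 (adjusted p = 0.118), Cpt2, which rebuilds acyl-CoA inside, -0.38, Crat, the carnitine acetyltransferase, -0.12, and Mlycd, which removes the Cpt1a inhibitor malonyl-CoA, -0.23. The value of Crat turned to 0.04 without Lpr replicate 3.

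None of the 11 genes of the mitochondrial spiral passed between Lpr and Ctr, and their median log2 fold change was -0.14, or -0.26 without Lpr replicate 3. The dehydrogenases of the first step gave -0.14 (Acadvl, very long chains), -0.07 (Acadl, long), -0.22 (Acadm, medium) and -0.01 (Acads, short). Without Lpr replicate 3 they were -0.27, -0.17, -0.58 and -0.17. For the subunits of the trifunctional protein, which runs the later steps on long chains, values were -0.43 (Hadha) and -0.31 (Hadhb). Hadh, the dehydrogenase for shorter chains, gave -0.07, and the thiolases gave -0.16 (Acaa2) and 0.01 (Acat1), which became -0.13, -0.26 and -0.11 without that kidney. The auxiliary enzymes for unsaturated chains went opposite ways in sign, with Decr1, the mitochondrial counterpart of Decr2, at -0.26 and the isomerase gene Eci1 at 0.41 (adjusted p = 0.563 and 0.278). Without Lpr replicate 3 Decr1 passed as lower (log2 fold change -0.47, adjusted p = 0.035 from edgeR). The electron transfer genes gave -0.03 (Etfa), 0.15 (Etfb) and -0.29 (Etfdh, the oxidoreductase that feeds ubiquinone), none passing. Etfb was the highest in Lpr replicate 3 (312, 221, 719 and 286 CPM in the Lpr kidneys), and its value turned to -0.35 without that kidney, where Etfa was at -0.23 and Etfdh at -0.30. About 43.9% of the exon bases of Acadvl overlap Dvl2 on the opposite strand.

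Neither regulator passed. Ppara was at 131, 150.5 and 145 CPM in Ctr and 149, 105, 32.2 and 128 CPM in Lpr. Lpr replicate 3 was far below the rest, which overlapped with Ctr (log2 fold change -0.45, standard error 0.42, adjusted p = 0.6), and without it the log2 fold change was -0.16. Ppargc1a, the PGC-1alpha gene, was at 95.9, 83.6 and 82.2 CPM in Ctr and 68.1, 75.0, 29.5 and 91.3 CPM in Lpr (log2 fold change -0.39, and -0.15 without Lpr replicate 3). Nor did the omega-hydroxylases Cyp4a10 and Cyp4a14, classical targets of PPARalpha that oxidise the far end of the chain, with log2 fold changes of -0.58 and -0.66 (adjusted p = 0.329 and 0.212). Pdk4, a kinase that shuts off glucose oxidation when fat is burned, was at 41.9, 64.8 and 112 CPM in Ctr and 23.5, 111, 27.2 and 28.5 CPM in Lpr. A single kidney, Lpr replicate 2, stood among the Ctr values, and without it Pdk4 passed as lower, whereas with it the log2 fold change was -0.60 (standard error 0.59).

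**Figure D3:**
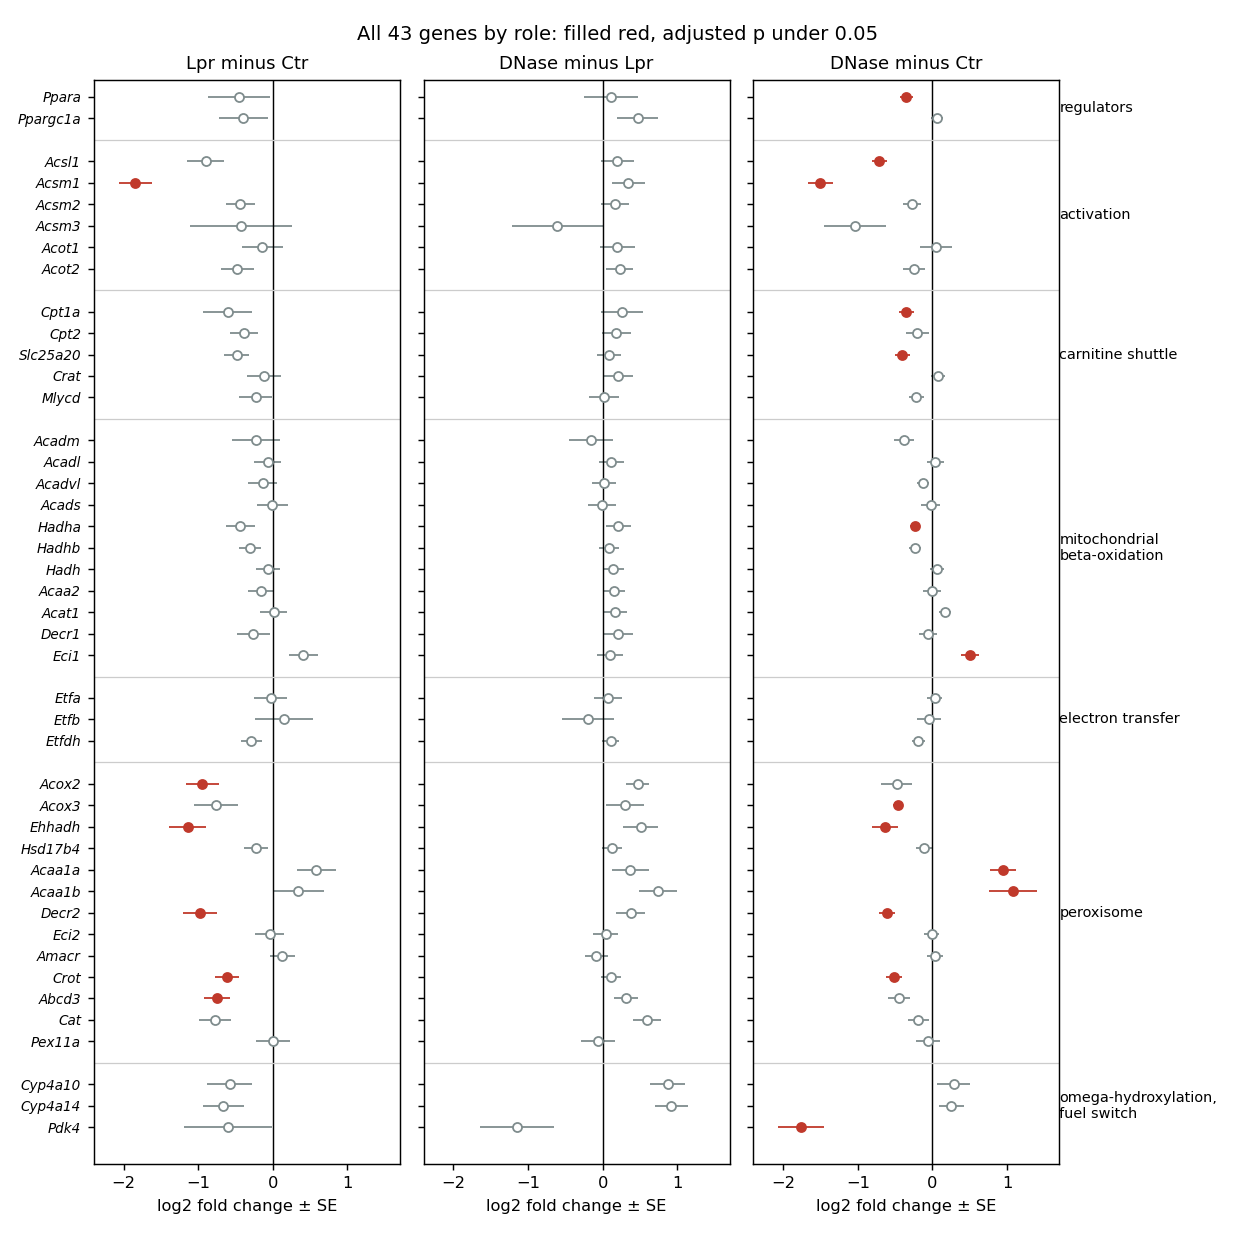
Log2 fold changes of the 43 genes with their standard errors in the 3 comparisons, grouped by role. Filled red points passed (adjusted p under 0.05 from edgeR), 6 in Lpr minus Ctr, 0 in DNase minus Lpr and 14 in DNase minus Ctr.

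The comparison of DNase with Lpr asks whether DNase I moved these genes within the diseased strain. None of the 43 genes passed in either direction (against 0% of all 15832 genes tested higher and 0% lower by edgeR), and DESeq2 called 0 of the 43, against 0.0662% higher and 0.0386% lower of the 18131 genes it tested. The smallest adjusted p among them was 0.82 from edgeR and 0.0665 from DESeq2, the latter for Cyp4a14. At an unadjusted p under 0.05, 5 genes were higher in DNase (11.6%, against 2.17% of all genes tested) and 1 was lower (2.33%, against 3.43% of all). Every DNase kidney lay above every Lpr kidney for 3 genes (6.98%, against 2.08% of all), and below for 0 (against 1.68% of all). The fitted change was positive for 36 of 43 genes, with a median of 0.17 against -0.02 over all genes, but the median became -0.02 under proximal tubule scaling, where the median of all genes was -0.19. Without Lpr replicate 3, 10 genes were higher at an unadjusted p under 0.05 (23.3%, against 4.13% of all) and 1 lower (against 5.98% of all), again with 0 passing after adjustment. Those 10 were Acaa1b, Cyp4a14, Cyp4a10, Acaa1a, Decr1, Cat, Acox2, Acaa2, Acat1 and Etfa, and the smallest adjusted p among all 43 was 0.272 from edgeR. The number higher at an unadjusted p under 0.05 was 8 without Lpr replicate 1 (against 2.36% of all), and the 1 lower gene, Pdk4, missed that threshold without Lpr replicate 2 or DNase replicate 2, 3 or 4.

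Both omega-hydroxylase genes had the smallest p values. Cyp4a14 (chr4:115486200-115496142, - strand) was at 560.2, 319, 274 and 379 CPM in Lpr and 628, 744, 712 and 823 CPM in DNase, beside 703, 695 and 433 CPM in Ctr. The DNase kidneys lay above all Lpr kidneys and around the upper Ctr values, and the fitted ratio was 1.90-fold (log2 fold change 0.92, 95% interval 0.43 to 1.41, unadjusted p = 0.00196 and adjusted p = 0.82 from edgeR). Cyp4a10 (chr4:115518264-115533649, + strand) was at 448, 269.8, 208 and 282 CPM in Lpr and 442, 574, 523 and 673 CPM in DNase. Lpr replicate 1 was just above DNase replicate 1, and the other Lpr kidneys were below all DNase kidneys (log2 fold change 0.87, 95% interval 0.34 to 1.40, unadjusted p = 0.00445 from edgeR). Cyp4a10 is 97.2% identical to Cyp4a32 over its coding bases, so its reads are hard to assign, while the closest copy of Cyp4a14, Cyp4a30b, is 81.1% identical.

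**Figure D4:**
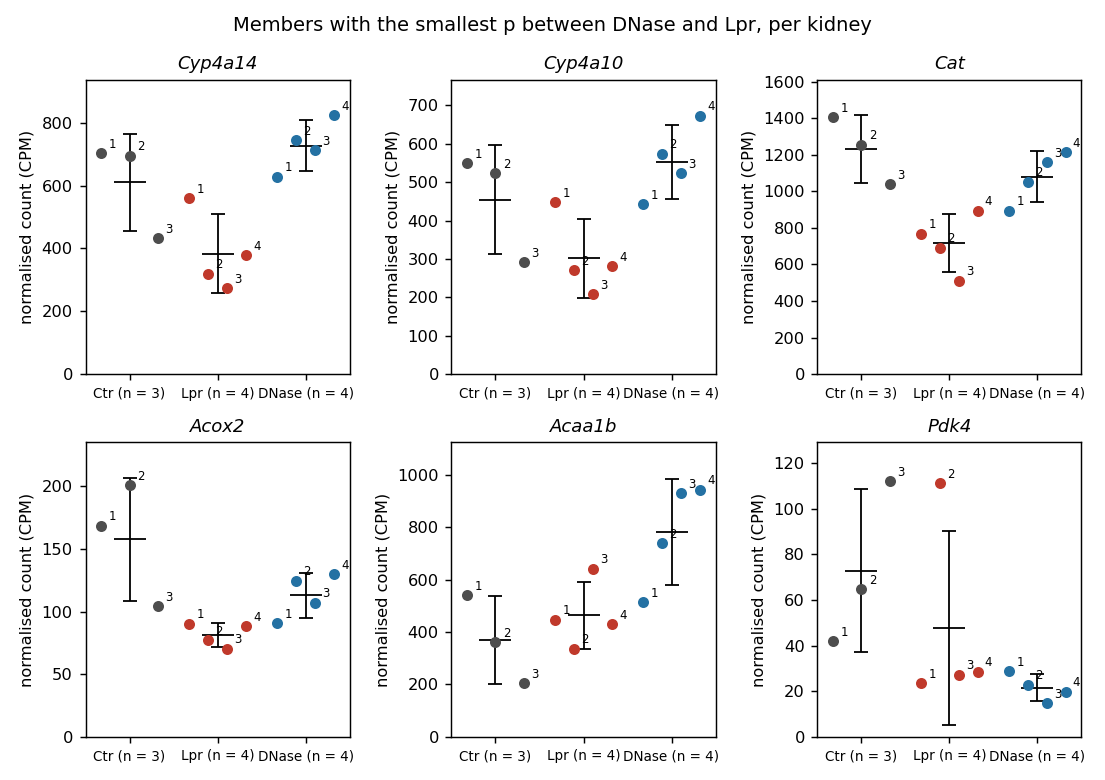
Normalised counts (CPM) of the 6 genes with the smallest p between DNase and Lpr. Each point is 1 kidney with its replicate number, and the bar and whiskers are the mean ± SD. DNase and Lpr kidneys are separate for Cyp4a14, Cat and Acox2, for the last 2 by less than 1 CPM, and Lpr replicate 2 stands alone at 111 CPM for Pdk4.

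For Cat, DNase kidneys were at 894, 1054, 1159 and 1214 CPM against the Lpr values given above. The groups were separate only by the narrow gap between DNase replicate 1 and Lpr replicate 4 (log2 fold change 0.59, 95% interval 0.17 to 1.01, unadjusted p = 0.0111 from edgeR). Acox2 stood at 90.6, 125, 107 and 129.7 CPM in DNase, again separate from Lpr by the gap between DNase replicate 1 and Lpr replicate 1 (log2 fold change 0.47, unadjusted p = 0.0123 from edgeR). The thiolase gene Acaa1b (chr9:119148023-119157093, - strand) was at 448, 336, 643 and 429.9 CPM in Lpr and 514, 739, 930.0 and 944 CPM in DNase. The groups overlapped through Lpr replicate 3 and DNase replicate 1 (log2 fold change 0.74, unadjusted p = 0.0148 from edgeR). Pdk4 was the gene lower in DNase, at 28.8, 22.9, 14.8 and 19.7 CPM (log2 fold change -1.15, unadjusted p = 0.043 from edgeR). That value rests on Lpr replicate 2, since the other Lpr kidneys overlapped with DNase, and without it the log2 fold change was -0.31.

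The genes that were lower in Lpr than in Ctr gave these values between DNase and Lpr: 0.51 for Ehhadh (unadjusted p = 0.0579 from edgeR), 0.38 for Decr2, 0.34 for Acsm1, 0.31 for Abcd3 and 0.11 for Crot. The same Lpr kidneys enter both comparisons, so an unusual Lpr kidney moves both in opposite directions. Among the genes not named for this comparison, values ran from -0.61 (Acsm3) to 0.37 (Acaa1a), and Acadm, Acads, Etfb, Amacr and Pex11a were the other negative ones besides Pdk4. The first 3 of these turned positive without Lpr replicate 3, at 0.20 (Acadm), 0.15 (Acads) and 0.31 (Etfb), and all 11 mitochondrial and all 3 electron transfer genes were then positive. By role, the median log2 fold change was 0.87 over the omega-hydroxylases with Pdk4, 0.31 over the 13 peroxisomal genes, 0.29 over the regulators, 0.20 over activation, 0.18 over the carnitine shuttle, 0.11 over mitochondrial beta-oxidation and 0.07 over electron transfer. The order changed when Lpr replicate 3 was left out, to medians of 0.73 over the omega-hydroxylases with Pdk4, 0.26 over electron transfer, 0.21 over the peroxisomal genes, 0.20 over mitochondrial beta-oxidation, 0.10 over activation, 0.07 over the carnitine shuttle and 0.01 over the regulators, and 24 of the 43 genes had moved by over 1.5 times with the same sign. Ppargc1a was at 94.3, 89.5, 94.7 and 86.5 CPM in DNase, all within or just above the Lpr range (log2 fold change 0.47, and 0.22 without Lpr replicate 3), and Ppara at 99.4, 122, 113 and 112 CPM (log2 fold change 0.11, turning to -0.19 without Lpr replicate 3). Beside these values, the summed injured-tubule markers (Havcr1, Lcn2, Krt20, Vcam1 and Spp1) were at 2555, 5475, 12113 and 2184 CPM in Lpr replicates 1 to 4. They ranged from 1428 to 1810 CPM in Ctr and 1911 to 2708 CPM in DNase, so Lpr replicates 1 and 4 lay within the DNase range. Spp1 alone averaged 5203 CPM in Lpr and 2154 CPM in DNase. The part of these markers in the result was not tested.

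**Figure D5:**
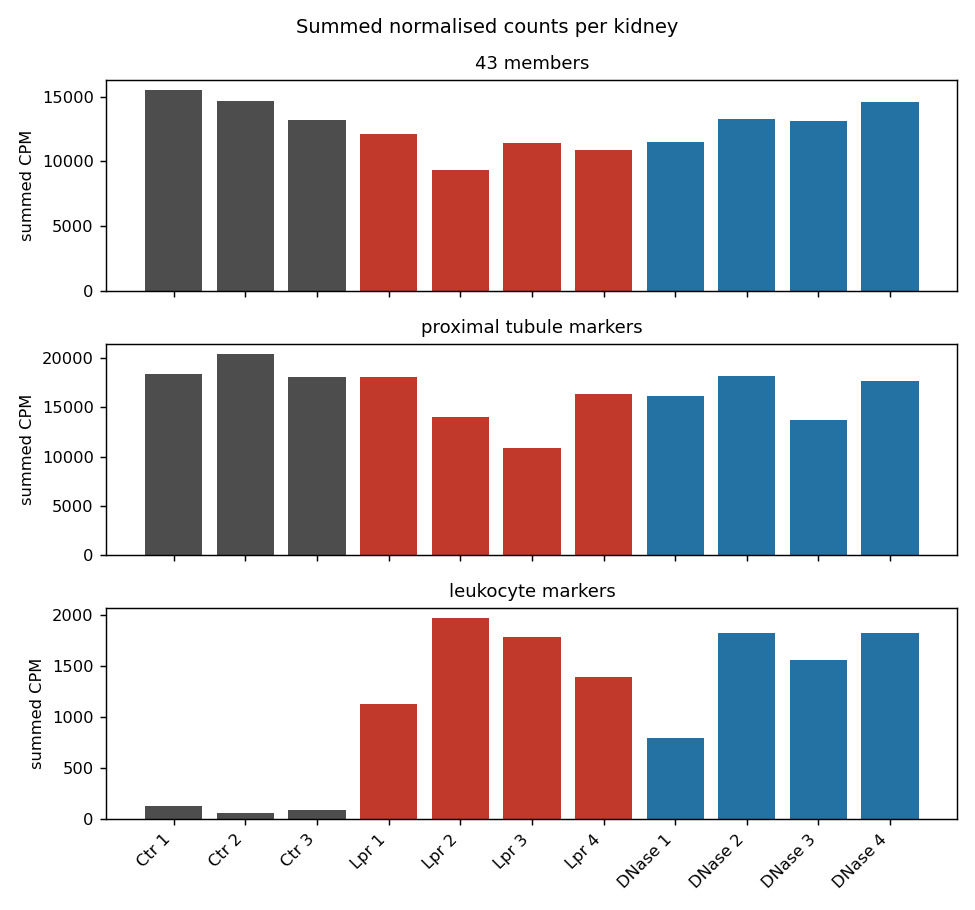
Summed CPM per kidney of the 43 genes, of 19 proximal tubule markers and of 16 leukocyte markers, with bars from 0 and 1 bar per kidney. The 43 genes sum to 13186 to 15525 CPM in Ctr, 9325 to 12130 CPM in Lpr and 11505 to 14575 CPM in DNase, and Lpr and DNase overlap in each panel.

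The comparison of DNase with Ctr shows how the treated kidneys stood against healthy ones. Here 11 of 43 genes passed as lower in DNase (25.6%, against 8.61% of all 16100 genes tested) and 3 as higher (6.98%, against 13.1% of all). The median log2 fold change was -0.19 against 0.00 over all genes, but became 0.03 under proximal tubule scaling, where the median of all genes was 0.22 and only Acsl1, Acsm1 and Pdk4 passed as lower (against 3.83% of all). The Ctr kidneys are those of the first comparison. The 3 higher genes passed under that scaling too (against 16.3% of all), but the count fell to 1 (Acaa1a) without Ctr replicate 3 (against 10.7% of all), and Acaa1b also failed to pass without Ctr replicate 2 or DNase replicate 2, 3 or 4.

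Acsm1 again had DNase kidneys far below Ctr, at 94.9, 125, 82.5 and 134 CPM (log2 fold change -1.50, standard error 0.16, adjusted p = 0.0002). For Acsl1 they were at 459.9, 431, 366 and 405 CPM beside 622, 707 and 712 CPM in Ctr, without overlap (log2 fold change -0.71, standard error 0.10, adjusted p = 0.00082). The peroxisomal genes that passed as lower were Acox3 (log2 fold change -0.46, standard error 0.07, adjusted p = 0.00094), Decr2 (log2 fold change -0.61, standard error 0.11, adjusted p = 0.0037), Ehhadh (log2 fold change -0.64, standard error 0.18, adjusted p = 0.0314) and Crot (log2 fold change -0.51, standard error 0.11, adjusted p = 0.0084). Abcd3 and Acox2 gave -0.44 and -0.48 (adjusted p = 0.0644 and 0.137), and Cat -0.19 (adjusted p = 0.388). The carnitine shuttle contributed Slc25a20 (log2 fold change -0.40, standard error 0.10, adjusted p = 0.0183) and Cpt1a (log2 fold change -0.35, standard error 0.10, adjusted p = 0.0328). Ppara (log2 fold change -0.35, standard error 0.09, adjusted p = 0.0226) and Hadha (log2 fold change -0.23, standard error 0.07, adjusted p = 0.042) were lower by small amounts. The Ppara call was lost without Ctr replicate 2, Ctr replicate 3 or DNase replicate 4, the Ehhadh call without Ctr replicate 1, Ctr replicate 2, DNase replicate 2 or DNase replicate 3. The Hadha call was lost when any 1 of the 7 kidneys was left out, and the Cpt1a call without any of the Ctr kidneys or DNase replicate 1, 3 or 4.

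The genes higher in DNase than in Ctr were the thiolase genes Acaa1a and Acaa1b and the isomerase gene Eci1. The other thiolase and double-bond genes of the list did not pass as higher, and Decr2 passed as lower. Acaa1a (chr9:119339676-119350299, + strand) was at 131, 123 and 102 CPM in Ctr, 169, 127, 259.6 and 148 CPM in Lpr and 170.2, 204, 269 and 272 CPM in DNase. All DNase kidneys were above all Ctr kidneys, with a ratio of 1.93-fold (log2 fold change 0.95, standard error 0.18, adjusted p = 0.00411). Acaa1b stood at 541, 362 and 204 CPM in Ctr, where Ctr replicate 1 overlapped with DNase (log2 fold change 1.08, standard error 0.32, adjusted p = 0.0392). The coding sequences of both are 96.5% identical, so how the reads were split between them is uncertain, and Acaa1a shares 1.64% of its exon bases with Myd88 on the opposite strand. Eci1 was at 118, 98.9 and 98.5 CPM in Ctr and 124, 144, 159 and 168 CPM in DNase, without overlap (log2 fold change 0.50, standard error 0.12, adjusted p = 0.0158). Acaa1a and Acaa1b thus differed in sign from Acox3, Ehhadh, Decr2 and Crot, which serve the same peroxisomal pathway.

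Pdk4 was lower in DNase than in Ctr (log2 fold change -1.76, standard error 0.31, adjusted p = 0.00342), with all DNase kidneys below the lowest Ctr kidney. All 7 skeletal muscle markers passed as lower in the same comparison, with a median log2 fold change of -2.19 and sums of 20.7 to 45.9 CPM in Ctr and 3.51 to 10.8 CPM in DNase. Of the brown adipocyte markers 3 of 4 passed as lower, with sums of 2.65 to 194 CPM in Ctr and 0.0252 to 9.67 CPM in DNase. The white adipocyte markers did not pass (0 of 7 tested), and the 8 of them summed to 391, 34.7 and 870.3 CPM in Ctr replicates 1, 2 and 3 and to 6.11 to 206 CPM in DNase, with overlap. None of these markers was at 0 in a whole group. The part of muscle and fat tissue in the Pdk4 result was not tested.

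The genes of the list not yet named for this comparison did not pass. Their log2 fold changes between DNase and Ctr were -0.27 (Acsm2), -1.03 (Acsm3), 0.05 (Acot1) and -0.25 (Acot2) for activation and hydrolysis. For the shuttle they were -0.20 (Cpt2), 0.07 (Crat) and -0.22 (Mlycd). In the mitochondrial spiral Acadm gave -0.38 (adjusted p = 0.074) and Hadhb -0.23 (adjusted p = 0.0628), and Acadl, Acadvl, Acads, Hadh, Acaa2, Acat1 and Decr1 lay between -0.12 and 0.17. Etfa, Etfb and Etfdh gave 0.03, -0.05 and -0.19. Hsd17b4, Eci2, Amacr and Pex11a lay between -0.11 and 0.04, Ppargc1a gave 0.06, and Cyp4a10 and Cyp4a14 gave 0.29 and 0.25.

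Genes of the same pathways outside the list were read for comparison. A further list of peroxisome genes was drawn up by symbol, and where each product lies in the cell was not checked. Of the 45 of these tested, 4 passed in Lpr against Ctr (8.89%, against 2.92% of all genes as lower) and 8 in DNase against Ctr (17.8%, against 8.61%), each of them lower than in Ctr. The 4 included Nudt19 and Acot12, which break down CoA and acyl-CoA, and Acot3, a peroxisomal thioesterase. Nudt19 ranged from 332 to 438 CPM in Ctr, 90.2 to 159.6 CPM in Lpr and 79.6 to 136 CPM in DNase, without overlap with Ctr. Its log2 fold changes were -1.63 for Lpr and -1.77 for DNase against Ctr (adjusted p = 0.00253 and 0.000124 from edgeR). Of 32 further mitochondrial and ketone genes tested, 3 passed as lower (9.38%) and 1 as higher (3.12%, against 7.27% of all genes) in Lpr than in Ctr, and 8 as lower (25.0%) and 2 as higher (6.25%, against 13.1%) in DNase than in Ctr. They included Acsm5, a synthetase related to Acsm1, with log2 fold changes of -1.04 and -0.46 against Ctr for Lpr and DNase (adjusted p = 0.0118 and 0.0275 from edgeR). Of 33 further PPAR receptors, partners and targets tested, 1 passed as lower (3.03%) and 2 as higher (6.06%) in Lpr than in Ctr, shares near those of all genes, and 6 as lower (18.2%) and 3 as higher (9.09%) in DNase than in Ctr. Without Lpr replicate 3, the genes lower in Lpr numbered 9 of the 45, 9 of the 32 and 3 of the 33, against the 6.79% of all genes given above. The higher ones included Cyp4a12a, another omega-hydroxylase, at 1.05 to 2.23 CPM in Ctr, 18.6 to 23.2 CPM in Lpr and 24.0 to 56.4 CPM in DNase (log2 fold change 3.71 for Lpr against Ctr, adjusted p = 0.000338 from edgeR). None of these genes passed between DNase and Lpr.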

How the data were processed

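The deposited gene counts are raw and whole, for 11 kidney libraries (1 per mouse). The submitters' processing notes name fastp, HTSeq, DESeq2, R 3.2.0 and the mm10 build, and the aligner, annotation and use of strand are not given in the sources used here. FPKM values, as deposited by the authors, are those counts divided by library total and gene length, and were used for levels between genes and for one alternative. Each p-value measures the spread between mice.

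Each pair of groups was fitted alone with edgeR 4.0.16 (R 4.3.3; filterByExpr, TMM, quasi-likelihood test, Benjamini-Hochberg over all genes tested), and a gene passed at an adjusted p under 0.05. Genes given their fitted values were those that passed and, where fewer than 6 did, those with the smallest p up to 6, with up to 3 per direction from other lists. The genes and lists were chosen with earlier results of these data known. Alternatives were other scalings, DESeq2 1.42.0, limma 3.58.1 on log2(FPKM + 1) and log2(FPKM + 0.1), filters, one joint fit, a replicate block and leaving out each kidney. Coordinates came from GENCODE M21 on GRCm38, and the figures were drawn with matplotlib 3.10.9. The code was tested before use on data made with known changes. Of 100 genes given an absolute log2 fold change of 1, it recovered 17 (Lpr minus Ctr), 47 (DNase minus Lpr) and 89 (DNase minus Ctr). Of 100 given a change of 2, it recovered 96, 96 and 100. Changes of the smaller size could thus be missed, and counts of calls are not directly comparable between comparisons.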

Additional observations from a re-analysis of the deposited data

Results flagged for a closer look

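In 86 groups of 4 kidneys (43 genes in Lpr and in DNase), 6 had 1 kidney far from the other 3, where chance alone sets such a kidney apart in about 1 group in 20. Pdk4 was at 111 CPM in Lpr replicate 2 and between 23.5 and 28.5 CPM in the other Lpr kidneys. Cpt1a was at 142 CPM in Lpr replicate 3 against 369.8 to 416 CPM, and Eci2 at 116 CPM in the same kidney against 77.7 to 80.2 CPM. Hadhb was at 198 CPM in Lpr replicate 2 against 242 to 247 CPM. Cpt2 was at 190.3 CPM in Lpr replicate 1 against 123 to 133 CPM. Acsm2 was at 948 CPM in DNase replicate 3 against 1235 to 1290.0 CPM in the other DNase kidneys.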

How the results depend on the processing

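Counts in brackets are over all genes tested in the same setting. Genes lower in Lpr than in Ctr numbered 6 (470 of 16074). They numbered 2 with scaling to proximal tubule markers (218 of 16074) and 2 by limma with either pseudocount (310 and 286 of 13377). They numbered 8 by DESeq2 (841 of 19519) and 9 in one fit of all 3 groups (812 of 16500). The count was 0 when an absolute log2 fold change above 2 was also required (182 of 16074). With 1 kidney left out it was 1 to 11, with the shares of all genes given above. Genes lower in DNase than in Ctr numbered 11 (1386 of 16100). They numbered 3 with proximal tubule scaling (616 of 16100) and 3 in the joint fit of all 3 groups (600 of 16500). They numbered 15 by DESeq2 (1855 of 19513), 7 by limma with either pseudocount (787 and 776 of 13369) and 0 with the fold rule (233 of 16100). Genes higher in DNase than in Ctr numbered 3 (2107 of 16100), 3 by DESeq2 (2384 of 19513) and 4 by limma with either pseudocount (2258 and 2264 of 13369). They numbered 1 in the joint fit (1289 of 16500), 0 with the fold rule (734 of 16100) and 1 to 3 with 1 kidney left out (1696 to 2066 genes). The median log2 fold changes became 0.083 (Lpr minus Ctr), -0.021 (DNase minus Lpr) and 0.034 (DNase minus Ctr) with proximal tubule scaling. That scaling resizes each library as a whole, and the medians over all genes tested moved as well, to 0.42, -0.19 and 0.22. The marker sum was lowest in Lpr replicate 3, the library with the length trend. Why the marker sums differed between kidneys, and the part of that trend in the scaled medians with Lpr, was not tested. With a replicate block, 3 genes were lower in Lpr than in Ctr (315 of 15855 over all genes). In DNase against Ctr, 6 were then lower and 0 higher (639 and 1223 of 15950 over all genes). Same-numbered kidneys did not deviate together (correlations from -0.28 to 0.16). With so few kidneys per group, these correlations cannot show whether the numbers pair the mice. The 20 calls of single genes were refitted in 360 settings, of which 230 kept the call, 130 lost it and 0 changed its sign, and the 6 genes named between DNase and Lpr passed in none of 114 settings. Without Lpr replicate 3, genes that had not passed did turn sign, 3 between Lpr and Ctr (Crat, Acat1 and Etfb) and 4 between DNase and Lpr (Ppara, Acadm, Acads and Etfb). Library depth differed little between groups, and the gene with the lowest counts, Acsm3, had the largest standard error between Lpr and Ctr (0.68).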
